A study of Mus musculus with 4 samples.

Results

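The genes described here encode the proteins of the meiotic chromosome axis, the synaptonemal complex and meiotic recombination, in testes that lack or carry *Ccnyl1*. They were taken from a list of 34 gene symbols, and the platform annotation of the array paired 31 of them with a probe set of that gene alone. *Rad21l*, *Spata22* and *Hfm1* were not paired with one and are not analysed here. The 31 genes were read by 46 probe sets, out of 45101 in the table, and the probe set with the highest mean signal was used for each gene. The other probe sets are given where they differ.

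The study asked what the loss of *Ccnyl1*, a cyclin Y-like gene, does in mouse testis, and this comparison set 2 *Ccnyl1*-/- mice against 2 WT mice with 1 Affymetrix array per mouse. All 4 were C57BL/6 males aged 2 months, and RNA of the testis was used. The *Ccnyl1*-/- mice carried the *Ccnyl1* tm1a(EUCOMM)Wtsi allele on both copies, a knockout-first allele in which a LacZ and neo cassette interrupts the gene in every tissue and not in germ cells alone, and they came from heterozygous pairings. The WT mice carried neither. Each array came from a mouse of its own (biological replicates per the labels), and 2 against 2 leaves few degrees of freedom, so the p-values given with the genes below come from limma, which shares the spread over all probe sets.

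The probe set of *Ccnyl1* itself gave signals of 920.8 and 969.4 in *Ccnyl1*-/- testes, against 2256 and 2425 in WT testes. It fell by 1.29 on the log2 scale (limma, adjusted p = 0.00463), to 40.4% of the WT mean, and its position with respect to the cassette was not determined. The 4 arrays resembled each other closely: log2 signals correlated between 0.977 and 0.980 over any pair, and 26.4% to 29.1% of probe sets gave less than 32. As a sign of RNA quality, the 3′ over 5′ ratio of *Actb* was 1.83 and 1.74 in *Ccnyl1*-/- and 1.87 and 1.78 in WT testes. The lists of marker genes for spermatogonia, pachytene spermatocytes, round and elongating spermatids and Sertoli cells all gave signal on every array. Their values are given at the end.

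In meiotic prophase the duplicated chromosomes are organised into loops along a protein axis built on cohesin, and the axes of homologous chromosomes are joined along their length by the synaptonemal complex. At the same time programmed DNA double-strand breaks are made, their ends are coated with recombinases that seek the homologue, and a few of the repaired sites mature into crossovers that hold the homologues together until the first division. In male mice a checkpoint kinase pathway also silences the unsynapsed X and Y chromosomes in the sex body, and spermatocytes that fail at any of these steps are usually eliminated.

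No gene of the axis, the synaptonemal complex or recombination passed the test in *Ccnyl1*-/- against WT testes. Over all probe sets tested, 4 of 32438 (0.0123%) had an adjusted p under 0.05, all of them lower in *Ccnyl1*-/-, and 0 of the 31 genes did. The lowest adjusted p among the 31 was 0.780, shared by *Sycp3* and *Dmc1*. At an unadjusted p under 0.05 the 31 genes held 1 that was higher in *Ccnyl1*-/- testes, *Sycp3*, against 2.85% of all 15268 genes, and 2 that were lower, *Syce1* and *Dmc1*, against 3.45% of all genes. The differences were small: the median log2 fold change of the 31 genes, *Ccnyl1*-/- over WT, was -0.05, with quartiles of -0.10 and 0.05, and that of all genes was -0.00036, with quartiles of -0.11 and 0.12. Without its sign, the median log2 fold change was 0.0942 for the 31 genes and 0.114 for all genes. Of the 31, 12 had a positive and 19 a negative value, and of all genes 7612 and 7656.

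The interval of the difference says how large a change could have been missed. For 29 of the 31 genes the 95% interval of the log2 fold change lay within 2-fold in both directions, against 83.4% of all genes, and the exceptions were *Dmc1* and *Atm*. The 31 genes were also brighter, with a median mean signal of 1690, against 387 for all genes. The part of brightness in the width of the intervals and the size of the differences was not tested. Both *Ccnyl1*-/- arrays lay above both WT arrays for 4 genes (*Sycp3*, *Mlh3*, *Exo1* and *Mdc1*), where 17.7% of all genes did so, and below both for 10 genes (*Syce1*, *Tex12*, *Rec8*, *Dmc1*, *Psmc3ip*, *Brca1*, *Meiob*, *Rpa1*, *Msh4* and *Trip13*), where 18.3% of all genes did so. In whole testis, fewer cells of a type and less RNA per cell cannot be told apart.

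**Figure D1:**
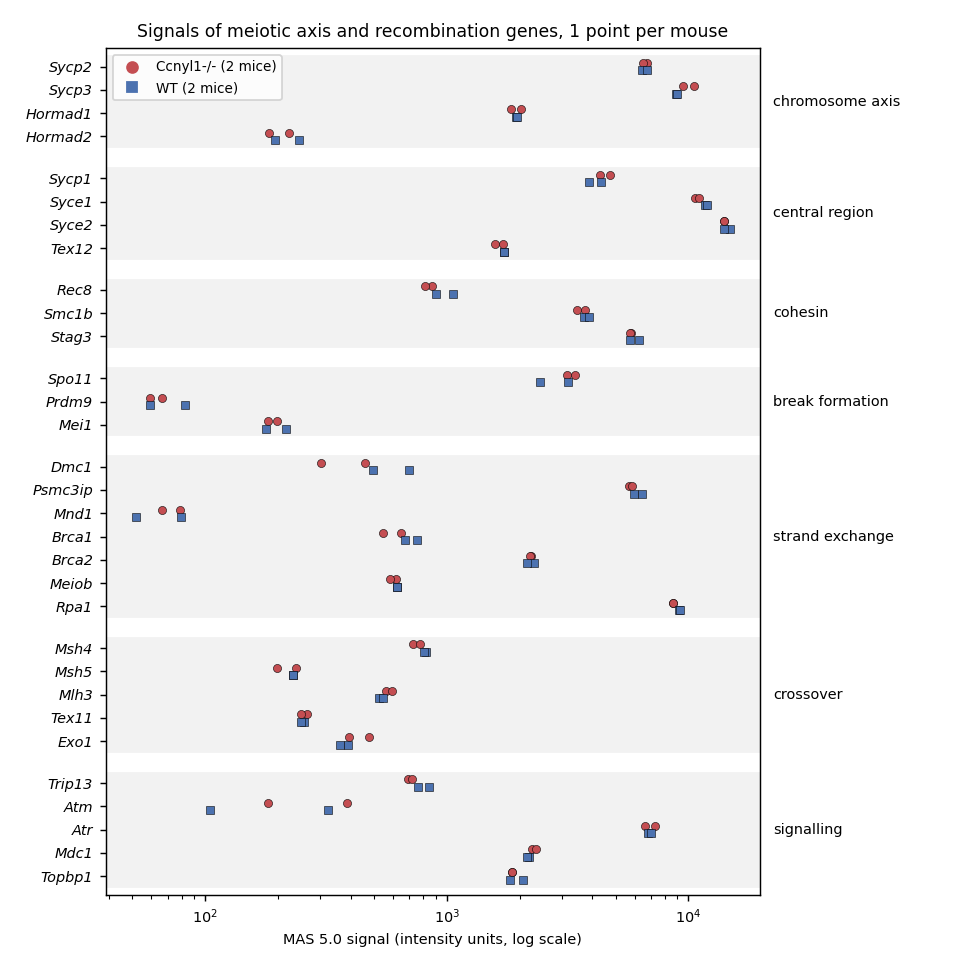
MAS 5.0 signal on a log axis for the 31 genes measured, ordered by role, with 1 point per mouse (*Ccnyl1*-/- and WT, 2 mice each). The genotypes are apart for 14 genes (45.2%), where 36.1% of all genes are so, and overlap for the others. The widest scatter is that of *Atm*, from 104.8 to 386.6.

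**Figure D2:**
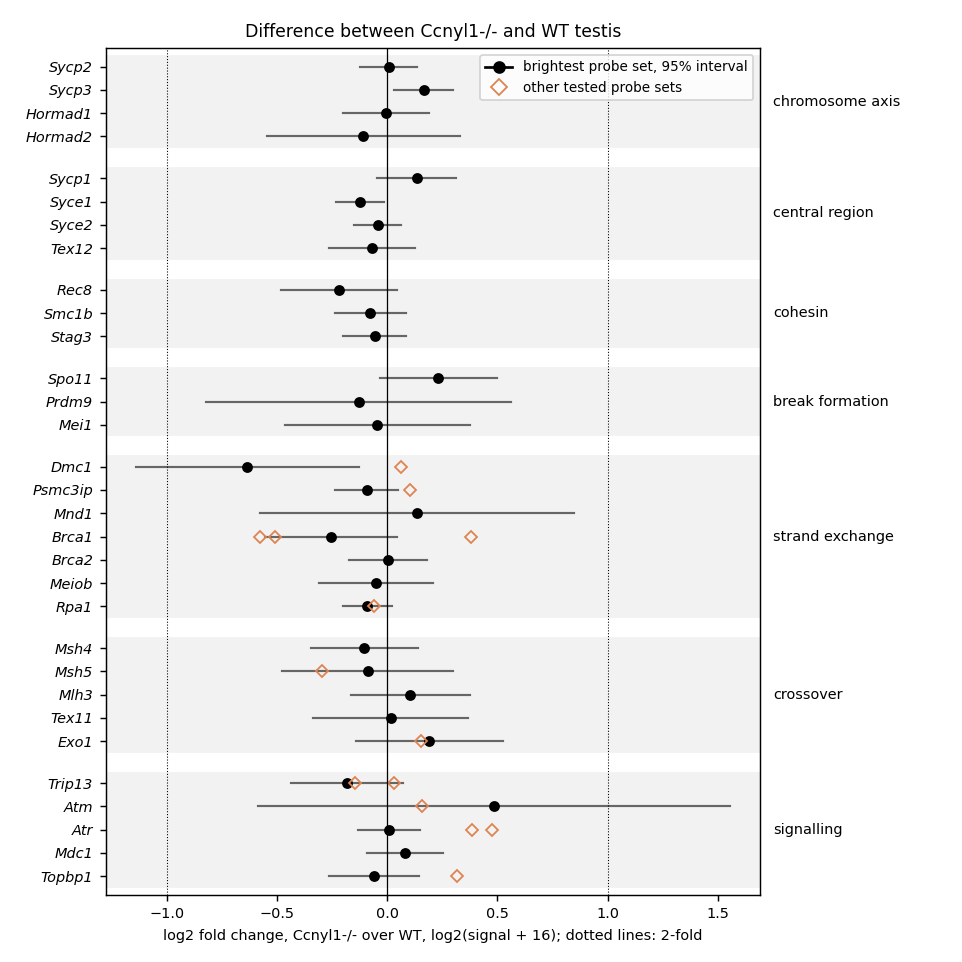
Log2 fold change of *Ccnyl1*-/- over WT for the 31 genes, as points with their 95% intervals from limma, and the other tested probe sets of a gene as open diamonds. The intervals of *Sycp3*, *Syce1* and *Dmc1* do not reach 0, no gene passes after adjustment, and the longest interval is that of *Atm* (-0.59 to 1.56).

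The promoters of these genes were examined because sequence motifs in them are known to recruit factors that control the meiotic programme. RefSeq (GRCm38.p6) gave the window of 250 bases before to 50 after the transcription start for 30 of the 34 genes, and *Tex11*, *Meiob*, *Spo11* and *Exo1* were not matched. Both strands were searched for TCCCGC, the core read by E2F factors, which include the meiotic repressor E2F6, for CACGTG, the E-box read by MAX-MGA and other factors, and for CNCCTCAG, the motif of STRA8-MEIOSIN, which starts meiosis. The letters of these 3 motifs do not contain each other. The 3 were chosen after a longer set had been counted, so their shares are descriptions and were not tested. TCCCGC was found for 19 of the 30 genes (63.3%), against 22.0% of 27025 genes, CACGTG for 7 (23.3%), against 8.09%, and CNCCTCAG for 7 (23.3%), against 9.12%. The promoters of the 30 genes also had a median G and C content of 61.0%, against 52.7% for all promoters, and its part in these shares was not tested. The median log2 fold change was -0.06 for the 17 measured genes with TCCCGC and -0.08 for the 10 without, -0.04 for the 7 with CACGTG and -0.08 for the 20 without, and -0.08 for the 6 with CNCCTCAG and -0.06 for the 21 without.

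The 3 genes with an unadjusted p under 0.05 on the probe set used did not pass after adjustment, and their promoter sequences are given below. Each runs 5′ to 3′ on the strand of the gene, and capitals mark the motif letters, on either strand. *Sycp3* (chr10:88459337-88459636, plus strand) holds TCCCGC on the opposite strand, 147 bases before the start, and CACGTG at 64 and 43 bases before it. *Syce1* (chr7:140787805-140788104, minus strand) holds none of the 3 motifs. *Dmc1* (chr15:79605060-79605359, minus strand) holds TCCCGC at 240 and 13 bases before the start.
Sycp3: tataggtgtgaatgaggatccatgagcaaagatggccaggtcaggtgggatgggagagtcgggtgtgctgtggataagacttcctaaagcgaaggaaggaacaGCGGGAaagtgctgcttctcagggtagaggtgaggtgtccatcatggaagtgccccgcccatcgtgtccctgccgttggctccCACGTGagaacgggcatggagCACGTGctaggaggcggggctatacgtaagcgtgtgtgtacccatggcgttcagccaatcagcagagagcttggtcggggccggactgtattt
Syce1: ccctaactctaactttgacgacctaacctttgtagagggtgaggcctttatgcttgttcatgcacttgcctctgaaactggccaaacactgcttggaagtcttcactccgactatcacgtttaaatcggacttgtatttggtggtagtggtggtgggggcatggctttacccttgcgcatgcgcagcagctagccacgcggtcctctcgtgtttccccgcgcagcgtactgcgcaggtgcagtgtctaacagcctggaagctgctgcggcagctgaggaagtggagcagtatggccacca
Dmc1: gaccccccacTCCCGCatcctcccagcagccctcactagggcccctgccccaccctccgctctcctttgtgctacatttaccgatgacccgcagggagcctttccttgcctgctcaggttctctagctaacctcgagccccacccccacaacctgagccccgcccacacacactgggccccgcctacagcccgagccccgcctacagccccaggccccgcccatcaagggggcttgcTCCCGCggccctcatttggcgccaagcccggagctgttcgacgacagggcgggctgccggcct

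Among the genes of the chromosome axis, *Sycp3* was the one whose genotypes did not overlap, and none of them passed the test. *Sycp3*, which encodes a protein of the axial and lateral elements, gave 9524 and 10500 in *Ccnyl1*-/- testes, against 8841 and 8994 in WT testes. Both *Ccnyl1*-/- arrays were thus brighter than both WT arrays, and their mean was 112.3% of the WT mean. The log2 fold change was 0.17, with a 95% interval of 0.03 to 0.30 (limma, adjusted p = 0.780), and lay between 0.0948 and 0.235 when each mouse was left out in turn. *Sycp2*, the axis partner of *Sycp3*, gave between 6453 and 6740 on the 4 arrays with overlapping genotypes, and its log2 fold change was 0.01 (interval -0.12 to 0.13).

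The HORMA domain genes, whose proteins coat unsynapsed axes and are stripped from them by TRIP13 at synapsis, overlapped between the genotypes. *Hormad1* gave between 1842 and 2037 on the 4 arrays, with a log2 fold change of -0.01 (interval -0.20 to 0.19). *Hormad2* gave 222.5 and 183.4 in *Ccnyl1*-/- and 195.3 and 245.8 in WT testes. The genotypes alternated in the order of its values, and the log2 fold change of -0.11 had a standard error of 0.19 (limma, adjusted p = 0.951).

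The central region of the synaptonemal complex, in which the transverse filament SYCP1 is locked together by the central element proteins, gave differences in both directions. *Sycp1* gave 4729 and 4313 in *Ccnyl1*-/- testes, against 4346 and 3892 in WT testes. The lower *Ccnyl1*-/- array lay just under the higher WT array, and the log2 fold change was 0.13 (interval -0.04 to 0.31, limma adjusted p = 0.849). *Syce1*, which encodes a central element protein, gave 10640 and 11040 in *Ccnyl1*-/- testes, against 11710 and 11890 in WT testes. Both *Ccnyl1*-/- arrays were dimmer, at 91.8% of the WT mean, and the log2 fold change was -0.12 (interval -0.23 to -0.02, limma, adjusted p = 0.797).

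The difference of *Syce1* lay between -0.149 and -0.0969 when each mouse was left out in turn. The central element genes *Syce2* and *Tex12*, whose proteins assemble together into fibres, gave 14020 to 14890 and 1580 to 1731 over the 4 arrays. Their log2 fold changes were -0.04 (interval -0.15 to 0.06) and -0.07 (interval -0.26 to 0.13), and only the arrays of *Tex12* separated the genotypes.

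All 3 meiotic cohesin genes measured were lower in the mean of *Ccnyl1*-/- testes, and none passed the test. *Rec8*, the meiosis-specific kleisin that closes the cohesin ring, gave 867.2 and 811.9 in *Ccnyl1*-/- testes, against 1059 and 903.2 in WT testes. The genotypes did not overlap, the *Ccnyl1*-/- mean was 85.6% of the WT mean, and the log2 fold change was -0.22 (interval -0.48 to 0.05, limma adjusted p = 0.840). It was -0.104 without WT replicate 1 and -0.331 without WT replicate 2. *Smc1b*, the meiosis-specific SMC subunit, gave 3467 and 3748 in *Ccnyl1*-/- testes, against 3712 and 3893 in WT testes. These values overlapped, with a log2 fold change of -0.08 (interval -0.24 to 0.09), as did those of *Stag3*, the meiosis-specific stromalin subunit, between 5735 and 6265, with -0.06 (interval -0.20 to 0.09).

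The genes of break formation overlapped between the genotypes. *Spo11*, which encodes the topoisomerase-like enzyme that cuts the DNA, gave 3381 and 3151 in *Ccnyl1*-/- testes, against 2440 and 3166 in WT testes. WT replicate 1 was the dimmest of the 4, the others lay close together, and the log2 fold change was 0.23 (interval -0.03 to 0.50, limma adjusted p = 0.832). Without WT replicate 1 the log2 fold change of *Spo11* was 0.044, and without WT replicate 2 it was 0.417 (limma, adjusted p = 0.225). *Prdm9*, the histone methyltransferase that marks the sites of breaks, was dim, with 59.28 and 66.32 in *Ccnyl1*-/- and 59.38 and 82.44 in WT testes. Its 4 values lay close to the minimum signal and its log2 fold change of -0.13 had an interval of -0.82 to 0.56. *Mei1*, needed for break formation in mice, gave between 179.0 and 215.4, with a log2 fold change of -0.04 (interval -0.46 to 0.37).

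In strand exchange the lowest value of all 31 genes was that of *Dmc1*, the meiosis-specific recombinase. Its brighter probe set gave 458.3 and 301.0 in *Ccnyl1*-/- testes, against 494.2 and 695.2 in WT testes. Both *Ccnyl1*-/- arrays were lower than both WT arrays, but the higher of them lay near the lower WT array, and the mice of each genotype differed among themselves. The log2 fold change was -0.64, with a standard error of 0.22 and an interval of -1.14 to -0.13 (limma, adjusted p = 0.780). It was -0.926 without *Ccnyl1*-/- replicate 1, -0.345 without *Ccnyl1*-/- replicate 2, -0.875 without WT replicate 1 and -0.396 without WT replicate 2, so its size rested on single mice.

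The other probe set of *Dmc1*, which the annotation derives from the same transcript record, did not repeat this. It gave 352.9 and 289.0 in *Ccnyl1*-/- testes, against 286.2 and 325.9 in WT testes. These overlapped, and the log2 fold change was 0.06 (limma, adjusted p = 0.969). Both probe sets put *Ccnyl1*-/- replicate 1 above replicate 2 and WT replicate 2 above replicate 1.

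*Brca1*, a repair gene that also acts at unsynapsed chromosomes, was read by 4 probe sets of mixed direction. The brightest gave 542.7 and 647.2 in *Ccnyl1*-/- testes, against 749.9 and 673.7 in WT testes, which did not overlap, and its log2 fold change was -0.26 (interval -0.55 to 0.04, limma adjusted p = 0.832). Leaving out *Ccnyl1*-/- replicate 1 gave -0.132 for it and leaving out *Ccnyl1*-/- replicate 2 gave -0.38. A dimmer one gave 137.8 and 214.8 in *Ccnyl1*-/- testes, against 130.2 and 127.3 in WT testes, a log2 fold change of 0.38. Of the 2 dimmest, 1 gave 45.41 and 69.90 in *Ccnyl1*-/- and 93.16 and 91.45 in WT testes, a log2 fold change of -0.58. The other gave 58.33 and 45.65 in *Ccnyl1*-/- testes, against 71.88 and 89.60 in WT testes, a log2 fold change of -0.51. Within 1 gene the probe sets thus separated the genotypes 4 times, 3 times downward and 1 time upward, and none passed the test. Of all probe sets tested, 35.9% separated the genotypes.

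None of the cofactors of strand exchange passed the test. *Psmc3ip* and *Mnd1* encode the HOP2-MND1 complex, which helps DMC1 to invade the homologue. *Psmc3ip* gave between 5687 and 6411, with a log2 fold change of -0.09 (interval -0.24 to 0.05) and no overlap, while its other probe set gave 6049 and 6179 in *Ccnyl1*-/- and 5549 and 5823 in WT testes, again with no overlap but with 0.10. The sign of *Psmc3ip* therefore depended on the probe set. *Mnd1* was dim, between 51.57 and 79.73, and its log2 fold change of 0.13 had an interval of -0.58 to 0.85.

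*Brca2*, which loads recombinases onto single-stranded DNA, had among the narrower intervals of the strand exchange genes. Its signal lay between 2148 and 2300 and its log2 fold change was 0.00 (0.0035, interval -0.17 to 0.18). *Meiob*, a meiosis-specific single-strand binding protein, gave between 582.8 and 620.2, with -0.05 (interval -0.31 to 0.21). *Rpa1*, the large subunit of the general single-strand binding complex, gave 8638 and 8603 in *Ccnyl1*-/- testes, against 9100 and 9255 in WT testes. The mice of a genotype differed little there, the *Ccnyl1*-/- mean was 93.9% of the WT mean, and the log2 fold change was -0.09 (interval -0.20 to 0.02, limma adjusted p = 0.840), with -0.06 and overlapping arrays on the other probe set.

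The crossover genes gave differences in both directions within their error. *Exo1*, an exonuclease that also supports crossover resolution, gave 393.1 and 474.9 in *Ccnyl1*-/- testes, against 391.5 and 361.9 in WT testes. The lower *Ccnyl1*-/- array was almost equal to the higher WT array, and the log2 fold change was 0.19 (interval -0.14 to 0.53, limma adjusted p = 0.878). The difference of *Exo1* was 0.323 without *Ccnyl1*-/- replicate 1 and 0.0599 without *Ccnyl1*-/- replicate 2. Another probe set gave 0.15, and 1 more was under the minimum signal. *Mlh3*, a subunit of the MutL-gamma nuclease that resolves crossovers, gave 558.4 and 592.9 in *Ccnyl1*-/- testes, against 523.8 and 544.3 in WT testes. These did not overlap either, with a log2 fold change of 0.10 (interval -0.17 to 0.38).

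*Msh4* and *Msh5*, whose proteins form a clamp on recombination intermediates, both had negative values that the test did not separate from 0. *Msh4* gave between 727.7 and 818.9 with no overlap, and a log2 fold change of -0.10 (interval -0.35 to 0.14). *Msh5* gave between 198.7 and 236.7, with -0.09 (interval -0.48 to 0.30), and its dimmer probe set gave -0.29. *Tex11*, the X-linked crossover gene of the list, gave between 248.4 and 263.2, with 0.02 (interval -0.34 to 0.37).

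Among the signalling genes the largest value was that of *Atm*, a kinase activated by DNA breaks, and it was also the least certain. *Atm* gave 386.6 and 182.4 in *Ccnyl1*-/- testes, against 321.6 and 104.8 in WT testes. The mouse numbered 1 was the higher in either genotype, so the spread within a genotype was larger than the distance between the means, and the log2 fold change of 0.49 had an interval of -0.59 to 1.56 (limma, adjusted p = 0.898). Leaving out each mouse in turn gave log2 fold changes for *Atm* between -0.256 (without WT replicate 2) and 1.23 (without WT replicate 1). The other probe set gave 268.9 and 211.3 in *Ccnyl1*-/- and 232.8 and 193.5 in WT testes, a log2 fold change of 0.16 with the same order of the mice.

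*Trip13*, the ATPase that remodels HORMA domain proteins, gave 688.0 and 717.1 in *Ccnyl1*-/- testes, against 843.3 and 758.0 in WT testes. The genotypes did not overlap, and the log2 fold change was -0.18 (interval -0.44 to 0.07, limma adjusted p = 0.855), with -0.15 and 0.03 on its other probe sets. The sex body genes *Mdc1* and *Topbp1*, which spread and activate the ATR signal, gave 2147 to 2340 and 1823 to 2073 over the 4 arrays. Their log2 fold changes were 0.08 (interval -0.09 to 0.25) and -0.06 (interval -0.26 to 0.14), and a dim second probe set of *Topbp1* gave 75.39 and 87.74 in *Ccnyl1*-/- testes, against 58.40 and 66.22 in WT testes, a log2 fold change of 0.32 with no overlap.

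*Atr*, the kinase of sex chromosome silencing, was read by 3 probe sets that gave different answers. The brightest gave 6619 and 7239 in *Ccnyl1*-/- testes, against 6772 and 6999 in WT testes, which overlapped with a log2 fold change of 0.01 (interval -0.13 to 0.15). A dimmer probe set gave 536.6 and 547.2 in *Ccnyl1*-/- testes, against 373.9 and 453.5 in WT testes, a log2 fold change of 0.38 (limma, adjusted p = 0.783). The dimmest gave 317.3 and 297.8 in *Ccnyl1*-/- testes, against 232.1 and 202.4 in WT testes, a log2 fold change of 0.47 (limma, adjusted p = 0.764). Both dimmer probe sets separated the genotypes with the *Ccnyl1*-/- mice above, while the brightest did not, and they were singled out after their values were seen. Of the 10 genes with several probe sets, 5 (*Dmc1*, *Psmc3ip*, *Brca1*, *Trip13* and *Topbp1*) had log2 fold changes of both signs.

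**Figure D3:**
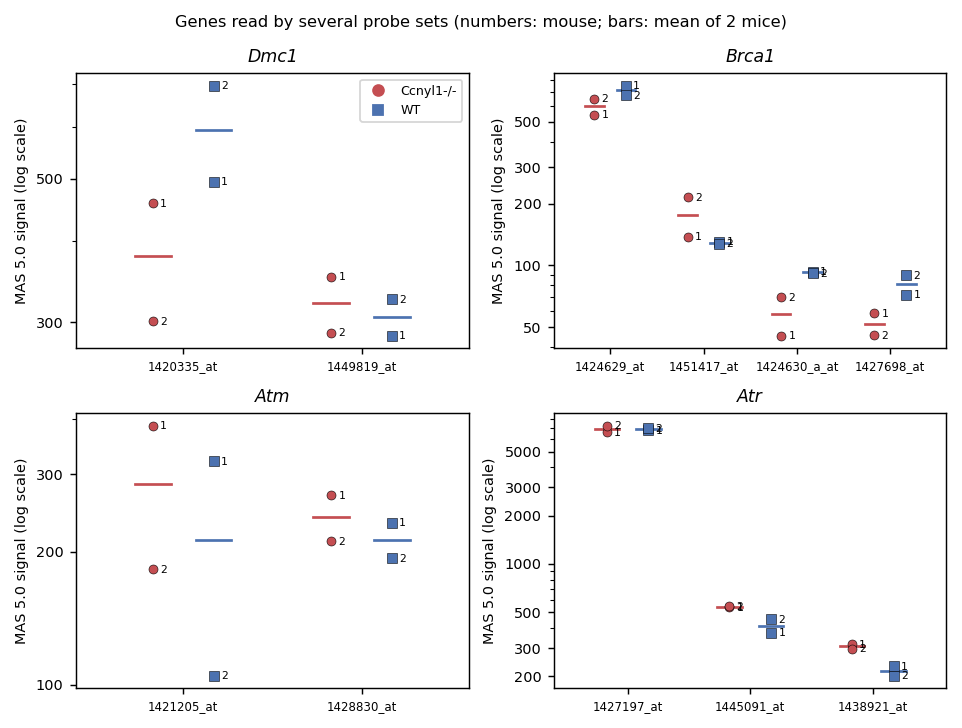
MAS 5.0 signal on log axes by probe set for *Dmc1*, *Brca1*, *Atm* and *Atr*, with the mouse number beside each point and a bar at the mean of 2 mice. The brighter probe set of *Dmc1* separates the genotypes (458.3 and 301.0 in *Ccnyl1*-/-, 494.2 and 695.2 in WT) and the dimmer one does not, and for *Atm* mouse 1 is above mouse 2 in both genotypes.

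The spread between mice of 1 genotype was set beside the difference between genotypes. Over the 31 genes the median absolute log2 difference was 0.101 between the 2 *Ccnyl1*-/- mice, 0.0978 between the 2 WT mice and 0.0942 between the genotype means, against 0.143, 0.151 and 0.114 over all genes. A difference between means of 2 mice varies less than that between single mice, so these sizes are not on equal terms. Nor are the 31 genes and all genes, since the 31 were brighter (median mean signal 1690, against 387). For 9 genes (*Sycp3*, *Syce1*, *Dmc1*, *Brca1*, *Rpa1*, *Msh4*, *Mlh3*, *Trip13* and *Mdc1*) the difference between genotypes was larger than that within either, where 23.6% of all genes were of this kind. The median log2 signal of the 31 genes was 10.76 and 10.64 in *Ccnyl1*-/- and 10.77 and 10.76 in WT arrays, so that *Ccnyl1*-/- replicate 2 was the lowest and the other 3 lay together.

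Other genes of meiosis were measured beside these. Of 91 other meiotic genes listed (synapsis and telomere attachment, cohesin and its protection, break formation, resection and strand exchange, crossover, checkpoint and sex body), 78 were tested, 0 passed, 44 were positive and 34 negative, and their median log2 fold change was 0.02. At an unadjusted p under 0.05 there were 4 of the 78 above WT, against 2.85% of all genes, and 2 below, against 3.45% of all genes. *Rad1*, a subunit of the checkpoint clamp formed with RAD9 and HUS1, gave 195.6 and 238.5 in *Ccnyl1*-/- testes, against 110.3 and 159.4 in WT testes, the largest difference of the 78 (log2 fold change 0.64, limma, adjusted p = 0.780). The clamp subunit *Rad9a* had 0.31 with overlapping arrays. *Fignl1*, a regulator of recombinases, gave 2276 and 2819 in *Ccnyl1*-/- testes, against 2083 and 2067 in WT testes (0.29, adjusted p = 0.785). *Nipbl*, the cohesin loader, and *Mael*, a germ cell factor of transposon silencing, had 0.20 (adjusted p = 0.807) and 0.13 (adjusted p = 0.780).

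*Mus81*, a nuclease of an alternative crossover pathway, gave 419.6 and 466.9 in *Ccnyl1*-/- testes, against 518.6 and 615.3 in WT testes (-0.34, limma adjusted p = 0.810). *Rnf8*, a ubiquitin ligase of the break response and the sex body, gave 428.4 and 452.2 in *Ccnyl1*-/- testes, against 555.6 and 535.3 in WT testes (-0.30, adjusted p = 0.810). Neither passed after adjustment. Both separated the genotypes, as did 26.9% of the other meiotic genes and 36.1% of all genes. Among the largest of the other differences, *Sgo1*, a protector of centromeric cohesin, gave 195.8 and 166.6 in *Ccnyl1*-/- testes, against 136.3 and 120.4 in WT testes (0.45), and *Ankrd31*, a partner of the break machinery, gave 16.26 and 86.22 in *Ccnyl1*-/- and 6.29 and 70.24 in WT testes (0.39), with the mouse numbered 2 far the higher in either genotype.

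Markers of spermatogonia, of pachytene spermatocytes and meiotic divisions, of spermatids and of other cells of the testis were set beside these genes. No list was made for spermatocytes before pachytene, so the share of those cells was not examined. The summed signal of 10 markers of pachytene spermatocytes and meiotic divisions was 100500 and 97870 in *Ccnyl1*-/- testes, against 98960 and 96760 in WT testes, and their median log2 fold change was 0.04. The largest part of it came from *Ldhc*, with 42930 and 40270 in *Ccnyl1*-/- and 42060 and 38970 in WT testes. The summed signal of the 9 genes listed for spermatogonia was 19150 and 20020 in *Ccnyl1*-/- testes, against 18570 and 18070 in WT testes, with a median of 0.08. Whether the listed genes are confined to spermatogonia was not tested. Most of these sums came from *Ddx4*, with 11800 and 12790 in *Ccnyl1*-/- and 11690 and 11480 in WT testes, and the sums follow it. Of the 9 markers, 7 were positive and 2 negative (*Zbtb16*, -0.13, and *Sohlh1*, -0.22). Round spermatid markers (8 genes) summed to 45080 and 44660 in *Ccnyl1*-/- and 46540 and 44370 in WT testes, with a median of -0.00049. All genes of these lists were at or above the minimum signal in the mean.

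Elongating spermatid markers (9 genes) summed to 267500 and 257800 in *Ccnyl1*-/- testes, against 260500 and 266100 in WT testes, with a median log2 fold change of -0.01. At an unadjusted p under 0.05 they held *Smcp* (0.18) and *Prm1* (0.09) above WT, against 2.85% of all genes. *Odf1* (-0.14) lay below it, against 3.45% of all genes, and none of the 9 passed after adjustment. Sertoli cell markers (9) summed to 28320 and 26910 in *Ccnyl1*-/- testes, against 27540 and 28730 in WT testes, with a median of 0.13. Most of each sum came from *Clu*, with 15990 and 15660 in *Ccnyl1*-/- and 16360 and 17330 in WT testes. Peritubular markers (5), all with positive values, summed to 3405 and 3015 in *Ccnyl1*-/- testes, against 2969 and 2786 in WT testes, with a median of 0.14. The sums did not overlap, but most of each came from *Acta2*, with 2474 and 2283 in *Ccnyl1*-/- and 2277 and 2031 in WT testes. Of the 5 genes, 2 (40%) separated the genotypes, against 36.1% of all genes. *Fshr* (0.64), a Sertoli cell marker, and *Star* (0.57), a Leydig cell marker, lay above WT at an unadjusted p under 0.05. *H2-Aa* (-0.62), of the macrophage list, lay below WT at that level. Of all genes, 2.85% lay above and 3.45% below in this way. The Sertoli cell list held 7 positive and 2 negative values, the Leydig cell list 3 and 1, and the macrophage list 1 and 5. Leydig cell markers (4) summed to 8883 and 4946 in *Ccnyl1*-/- testes, against 6741 and 3708 in WT testes. Most of each Leydig cell sum came from *Cyp17a1*, with 6164 and 2731 in *Ccnyl1*-/- and 4117 and 2009 in WT testes. Macrophage markers (6) summed to 1984 and 1767 in *Ccnyl1*-/- testes, against 3021 and 1976 in WT testes. The Leydig cell sum, like *Atm*, was higher in the mouse numbered 1 of either genotype. So were the sums of pachytene, round spermatid, peritubular and macrophage markers. The part of these cells in the *Atm* value was not tested. No list had a gene past the test, and the blood and endothelium list (4 genes, 3 tested) was dim, at 293.8 and 328.7 in *Ccnyl1*-/- and 282.6 and 282.3 in WT testes.

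**Figure D4:**
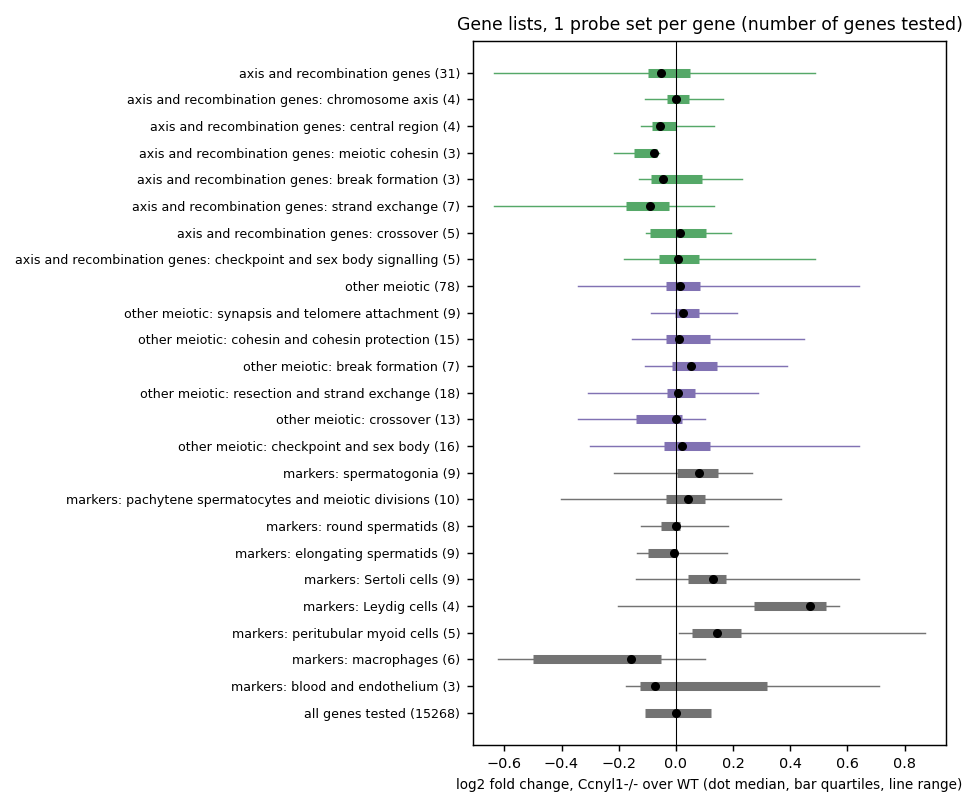
Log2 fold changes of *Ccnyl1*-/- over WT for the axis and recombination genes in all and by role, for the other meiotic genes, for the cell type markers and for all genes, where dots are medians, thick bars span the quartiles and thin lines the range (not drawn for all genes). The medians of the axis and recombination genes lie between -0.09 (strand exchange) and 0.02 (crossover), and the widest of the marker medians is that of Leydig cells (0.47).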

How the data were processed

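Labelled cRNA made from testis RNA was hybridised to Affymetrix mouse arrays. The values deposited by the authors are MAS 5.0 signals, intensities on a linear scale, background-subtracted and scaled globally. The methods state a target of 100, and all 4 deposited arrays have a trimmed mean of 500. Signals of different probe sets are not compared as amounts of RNA. Of 45101 probe sets, 64 controls were left out, and the test took the 32438 (15268 genes) whose mean signal reached 32. Differences of log2(signal + 16), which understate the change of dim probe sets, were tested with limma 3.58.1 in R 4.3.3 (genotype only, variance trend), with Benjamini-Hochberg adjustment at 0.05 over all probe sets and 95% intervals. The script was tested on simulated data.

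Members, lists and tests were chosen with earlier results of these data known, and the 3 motifs after a longer set had been counted. By rule, all array values are given for the genes with the largest 2 differences of each role, those at p under 0.05, and those whose probe sets differ by over 0.5 in log2 fold change or which separate the genotypes by over 0.3. Of the other meiotic genes, those at p under 0.05 and the 5 largest differences are named. The alternatives tried were other offsets and minimums, quantile normalization, 1 median for all arrays, limma without the trend or robust, the replicate block, the methods' t-test, no suffixed probe sets, the mean of all probe sets, and each mouse left out.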

Additional observations from a re-analysis of the deposited data

How the results depend on the processing

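No gene of the axis and recombination list passed the test under any alternative run, and the lowest adjusted p was 0.225 (*Spo11*, without WT replicate 2). The number of all probe sets called, 4 as reported, was 7 with the arrays scaled to 1 median, 14 with the replicate block, 0 without the variance trend and 0 by the methods' t-test (1900 at an unadjusted p under 0.05), and lay between 6 and 55 with 1 mouse left out. The replicate numbers were not treated as pairs in the main fit, and the block was run as an alternative because the labels share these numbers. Over all probe sets tested, the deviations of same-numbered mice correlated by 0.014. Scaling to 1 median moved the median of all probe sets to -0.0509, against 0.0219, and the median of the 31 genes to -0.127, with 8 positive and 23 negative. That of the other meiotic genes moved to -0.0591. The whole scale moved with it, so that *Sycp2* (-0.0724), *Brca2* (-0.0743), *Tex11* (-0.0577) and *Atr* (-0.0704), which lay within this shift above 0, became negative by construction. Signs turned for *Hormad1* (0.00792), *Syce2* (0.0105) and *Tex11* (-0.035) under quantile normalization and for *Psmc3ip* (0.00525) and *Topbp1* (0.128) in the mean of all probe sets. Without 1 mouse, 13 of the 31 signs turned, with ranges of -0.256 to 1.23 for *Atm*, -0.0566 to 0.0722 for *Atr*, -0.0454 to 0.0524 for *Brca2*, -0.0776 to 0.0664 for *Hormad1*, -0.263 to 0.0459 for *Hormad2*, -0.168 to 0.0787 for *Mei1*, -0.116 to 0.386 for *Mnd1*, -0.207 to 0.028 for *Msh5*, -0.322 to 0.0626 for *Prdm9*, -0.121 to 0.00624 for *Stag3*, -0.0242 to 0.0357 for *Sycp2*, -0.0232 to 0.0554 for *Tex11* and -0.152 to 0.0319 for *Topbp1*. The cause of the turns without 1 mouse was not tested. With 4 arrays the precision is limited, and dim genes such as *Prdm9* and *Mnd1* had the widest intervals after *Atm*.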
